A study of Mus musculus with 9 samples.

Results

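The genes described here are 31 enzymes, regulators and transporters of cholesterol and fatty acid synthesis that are known targets or parts of the SREBP system. They are listed by name, with no threshold on a measured value, though earlier results of these data were known when the list was drawn up. They comprise 4 regulators and transport genes, 18 enzymes of the sterol branch and 9 enzymes of the fatty acid branch. All 31 were found on the array through the RefSeq accession of a probe, among 20660 named genes, and all 31 were among the 15013 genes bright enough to be tested. The samples were 9 total RNA samples from mouse embryonic stem (ES) cells, each read on 1 one-colour Agilent array. Undifferentiated ES cells kept with LIF, the cytokine that holds ES cells undifferentiated, are called day 0. Embryoid bodies, the floating aggregates that ES cells form as they differentiate without LIF, were taken at day 3 and day 7. Beside a wild type line there was a PKm1 knock-in line and another with a PKm2 knock-in. These forms are the alternatively spliced products of the muscle-type pyruvate kinase gene, which acts in the last step of glycolysis, and the series sets the lines side by side before and during differentiation. Each genotype is represented by 1 line as labelled, with 1 array per line and day, and no repeat culture is given. Days were therefore compared across the 3 lines, and lines across the 3 days. The p-values below measure the spread between these arrays and not between independent cultures of a genotype.

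SREBP-1 and SREBP-2, encoded by Srebf1 and Srebf2, are transcription factors held in the endoplasmic reticulum membrane by SCAP and the INSIG proteins while sterols are plentiful. When membrane sterol falls, SCAP carries them to the Golgi, where they are cut, and the released part enters the nucleus and switches on genes of sterol and fatty acid synthesis. SREBP-2 is known to act mainly on the sterol genes and SREBP-1c mainly on the fatty acid genes, and Insig1 is itself a target, which closes a feedback loop.

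Levels are given as log2 signal, the log2 of the background-subtracted probe brightness after all arrays were scaled to the same 75th percentile. A difference of 1 is a 2-fold difference. Levels of different genes come from different probes and were not compared with each other. Values for the 3 lines are always given with wild type first, then the PKm1 and last the PKm2 knock-in, and a fitted difference carries its standard error (SE, n = 3 arrays a group). All 31 members read well above background on 9 of 9 arrays, with 0 member spots left out for quality.

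The 9 arrays read between 54.2% and 61.6% of their spots well above background. They lay on 3 slides: slide 1 held wild type day 0 and day 7, PKm1 knock-in day 3 and PKm2 knock-in day 0 and day 3, slide 2, scanned on another day, held wild type day 3 and PKm1 knock-in day 0 and day 7, and slide 3 held PKm2 knock-in day 7 alone. The 6 pluripotency markers (Pou5f1, Nanog, Sox2, Zfp42, Klf4 and Esrrb) were well above background on every array, with a mean log2 signal from 12.28 (PKm1 knock-in day 7) to 13.88 (PKm1 knock-in day 0). The PKm1 knock-in day 7 array stood apart in visceral endoderm markers, at a mean log2 signal of 15.32 over the 6 tested of 8. The wild type and PKm2 knock-in day 7 arrays had 8.92 and 8.79, and the 6 earlier arrays 5.37 to 6.42. Afp and Ttr read well above background only on the 3 day 7 arrays, and so were tested only through the day on which they were high. The gap to the earlier arrays is therefore partly built in. The 8 tested of 9 fibroblast and feeder cell markers averaged 8.8, 8.59 and 8.08 at day 0, 5.77, 5.23 and 5.26 at day 3, and 8.05, 7.65 and 5.38 at day 7. These are bulk samples, in which fewer cells of a type and less RNA per cell cannot be told apart. The part of these markers in the results below was not tested.

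The first comparison asked how the set changed when ES cells left the LIF culture and formed embryoid bodies, day 3 against day 0. Nearly the whole pathway stood higher at day 3: 29 of 31 members were higher in all 3 lines, and 27 had all 3 day 3 arrays above all 3 day 0 arrays, which was so for 22.6% of all genes tested. The median member was 1.34 higher, against 0.09 over all genes. At an adjusted p under 0.05 (limma, Benjamini-Hochberg over 15013 genes), 9 members rose and 0 fell, where 1.86% of all genes rose, 2.2% fell and 4.06% changed in either direction. The 9 were the sterol enzymes Hmgcs1, Sqle, Lss, Tm7sf2, Sc5d and Dhcr7 and the fatty acid enzymes Acaca, Scd2 and Fads2. At an unadjusted p under 0.05 there were 25 members, beside 26.4% of all genes.

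**Figure D1:**
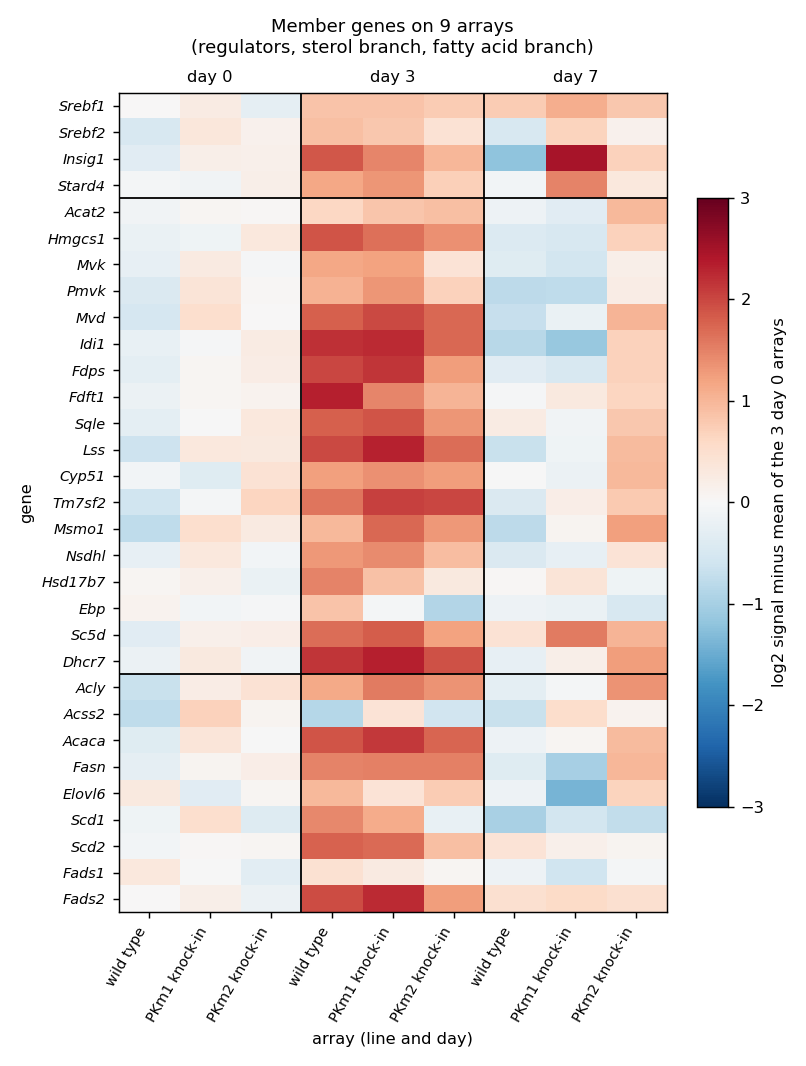
Each row is a gene and each column an array, grouped by day, and the colour is the log2 signal minus the mean of that gene's 3 day 0 arrays (red higher, blue lower). The 3 day 3 columns are red in nearly every row, the exceptions being Ebp, Acss2 and, in the PKm2 knock-in column, Scd1. The PKm1 knock-in day 7 column is darkest at Insig1.

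The regulators were higher at day 3 in each line, and none of the 4 passed the test. Insig1, the sterol-sensing anchor of the SREBP complex, read 6.99, 7.50 and 7.47 at day 0 and 9.18, 8.77 and 8.31 at day 3. All 3 day 3 arrays were above all 3 day 0 arrays, and the fitted difference of 1.44 ± 0.72 SE had an adjusted p of 0.26 in limma, with the largest SE of the 31 members. Stard4, a cytosolic sterol carrier, went from 9.63, 9.58 and 9.87 to 10.85, 11.02 and 10.40, a difference of 1.06 ± 0.36 SE (limma adjusted p = 0.132). A second Stard4 probe gave a larger mean difference of 1.97 (2.41, 1.96 and 1.54 in the 3 lines). Srebf1 read 5.26, 5.48 and 4.97 at day 0 and 6.10, 6.09 and 5.99 at day 3, and its difference of 0.82 ± 0.18 SE had an adjusted p of 0.0595 in limma. Srebf2 read 8.56, 9.36 and 9.17 at day 0 and 9.93, 9.83 and 9.46 at day 3. Its groups did not overlap, yet the wild type difference of 1.37 exceeded those of the knock-in lines, 0.47 and 0.29, and the adjusted p was 0.18 in limma. A second Srebf2 probe gave 0.55, 0.02 and 0.46 in the 3 lines, with a mean of 0.34, so the order of the lines rests on the probe used.

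The sterol branch starts with the joining of acetyl units and runs through mevalonate to squalene. Acat2, which makes acetoacetyl-CoA, was 0.79 ± 0.30 SE higher (limma adjusted p = 0.157). Hmgcs1, which makes the HMG-CoA from which mevalonate is formed, read 12.64, 12.72 and 13.14 at day 0 and 14.72, 14.49 and 14.20 at day 3. The rise was 1.63 ± 0.33 SE, a 3.10-fold difference, with an adjusted p of 0.0495 in limma, just inside the threshold. The mevalonate kinases and decarboxylase Mvk, Pmvk and Mvd were 0.93, 1.02 and 1.83 higher without passing the test. Pmvk read 12.08, 12.89 and 12.55 at day 0 and 13.54, 13.84 and 13.20 at day 3. Idi1, the isomerase that readies isoprene units for chain building, read 11.02, 11.22 and 11.49 and then 13.42, 13.49 and 12.96. Its difference of 2.05 ± 0.44 SE was the second largest of the set by size and had an adjusted p of 0.0572 in limma. Fdps and Fdft1, which build farnesyl units and join them into squalene, were 1.80 and 1.60 higher (adjusted p = 0.0609 and 0.0682 in limma).

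From squalene onward the pathway closes the rings and trims them to cholesterol. Sqle, the squalene epoxidase and a known control point of the pathway, read 11.75, 12.04 and 12.36 at day 0 and 13.84, 13.95 and 13.37 at day 3, a rise of 1.67 ± 0.31 SE (limma adjusted p = 0.0434). Lss, which folds the epoxide into lanosterol, rose by 1.99 ± 0.38 SE (limma adjusted p = 0.0456), from 8.35, 9.28 and 9.27 to 10.96, 11.28 and 10.65. Both enzymes had every day 3 array above every day 0 array. Cyp51, the lanosterol demethylase, read 8.43, 8.15 and 8.95 and then 9.75, 9.87 and 9.76, and its difference of 1.28 ± 0.27 SE missed the threshold in limma with an adjusted p of 0.0554. Tm7sf2, a sterol reductase that acts on the product of Cyp51, had the smallest SE of the branch. It read 8.88, 9.41 and 10.11 at day 0 and 11.07, 11.52 and 11.46 at day 3, a rise of 1.88 ± 0.23 SE or 3.69-fold, with an adjusted p of 0.0197 in limma.

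The enzymes that remove the paired methyl groups of the ring, Msmo1, Nsdhl and Hsd17b7, were 1.33, 1.22 and 0.89 higher at day 3, and none passed the test. Msmo1 read 11.78, 13.04 and 12.83 at day 0 and 13.52, 14.27 and 13.85 at day 3, with the wild type line lowest on both days. Sc5d, the desaturase near the end of the pathway, rose by 1.57 ± 0.27 SE (limma adjusted p = 0.0379), from 8.74, 9.25 and 9.28 to 10.78, 10.91 and 10.31. Dhcr7, the reductase that makes cholesterol in the final step, read 7.67, 8.14 and 7.76 at day 0 and 9.99, 10.20 and 9.77 at day 3. Its rise of 2.13 ± 0.37 SE, 4.37-fold with a limma adjusted p of 0.0379, was the largest fitted difference among the 31 members, and the 3 lines differed little in it (2.32, 2.06 and 2.0). Ebp, the sterol isomerase one step before Sc5d, was the single sterol enzyme with no common direction. It is named after its values were seen: it was 0.74 higher at day 3 in the wild type line, 0.02 higher in the PKm1 knock-in line and 0.83 lower in the PKm2 knock-in line (day 3 minus day 0 of -0.83).

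In the fatty acid branch, Acly and Acss2 supply cytosolic acetyl-CoA, from citrate and from acetate. Acly read 12.74, 13.64 and 13.85 at day 0 and 14.54, 14.96 and 14.75 at day 3, a difference of 1.34 ± 0.34 SE (limma adjusted p = 0.0788). Acss2 went against the set. It read 7.74, 9.20 and 8.57 at day 0 and 7.64, 8.92 and 7.94 at day 3, lower in each line, with a difference of -0.34 ± 0.20 SE and an adjusted p of 0.327 in limma. A second Acss2 probe gave a difference of 0.02, so its direction is not settled by the array. Among the 11 second probes kept for members, this was the 1 that differed in sign from the probe used.

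Acaca, the acetyl-CoA carboxylase that commits carbon to fatty acids, rose by 1.92 ± 0.31 SE or 3.79-fold (limma adjusted p = 0.0329), from 10.80, 11.51 and 11.16 to 13.05, 13.29 and 12.91. Of the other Acaca probes, 1 gave 1.71 and 1 gave 0.76, the latter with the wild type line at -1.87 and the knock-in lines at 2.29 and 1.87. Fasn, the fatty acid synthase, read 7.92, 8.26 and 8.37 at day 0 and a nearly equal 9.66, 9.69 and 9.70 at day 3, a difference of 1.5 ± 0.40 SE (limma adjusted p = 0.0853). Elovl6, which extends palmitate, read 12.80, 12.18 and 12.56 and then 13.49, 12.92 and 13.28. Its difference of 0.72 ± 0.35 SE did not pass (limma adjusted p = 0.252).

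The desaturases were uneven. Scd2, the stearoyl-CoA desaturase form prominent in brain, read 12.94, 13.04 and 13.07 at day 0 and 14.78, 14.72 and 13.93 at day 3, a rise of 1.46 ± 0.24 SE (limma adjusted p = 0.0357). Scd1, the form prominent in adult liver and fat, read 9.22, 9.84 and 8.96 and then 10.78, 10.45 and 9.13, so the PKm2 knock-in line was 0.17 higher where the wild type line was 1.55 higher, and the groups overlapped (limma adjusted p = 0.228). Fads2, the desaturase that starts the synthesis of long polyunsaturated fatty acids, rose by 1.82 ± 0.22 SE (limma adjusted p = 0.0194), from 4.84, 5.0 and 4.65 to 6.79, 7.07 and 6.10. Its probe is dim, and with normexp background correction the rise was 0.80, still past the threshold. Fads1, the desaturase of a later step of the same pathway, was 0.27 ± 0.23 SE higher, with overlapping groups (limma adjusted p = 0.497).

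**Figure D2:**
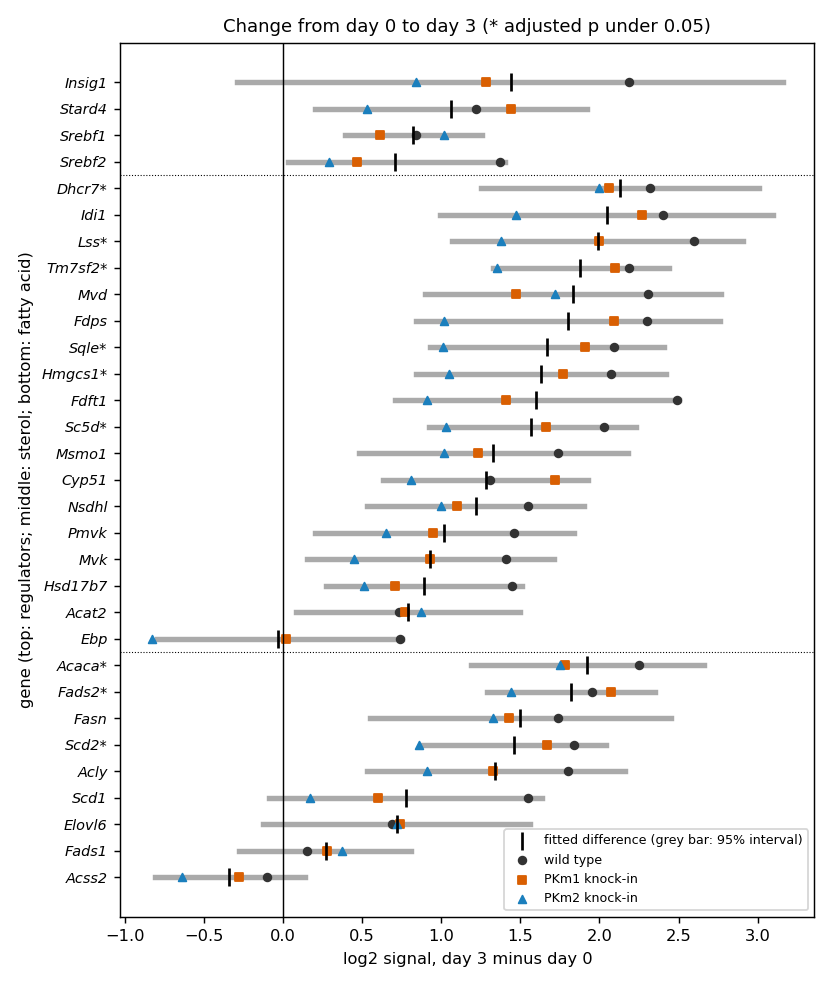
The horizontal axis is log2 signal at day 3 minus day 0, with 1 row per gene, a black tick for the fitted difference, a grey bar for its 95% confidence interval and 1 symbol per line. The wild type circles lie furthest to the right in most rows and the PKm2 knock-in triangles furthest to the left, and Ebp and Acss2 are the rows at or below 0.

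Both branches were higher at day 3, the sterol branch by somewhat more. Of the 18 sterol enzymes 17 were higher in all 3 lines and 6 rose, and of the 9 fatty acid enzymes 8 were higher in all 3 lines and 3 rose. The median difference was 1.58 for the sterol branch and 1.34 for the fatty acid branch. The sterol median minus the fatty acid median was 0.24 in the fit and 0.31, 0.24 and 0.16 within the 3 lines. No test was made of this difference, because the genes were chosen as a list. Its size moved with the processing: it was 0.69 with normexp background correction and 0.35 with the mean of probes, 0.12 without wild type day 3 and 0.33 without PKm2 knock-in day 0.

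The calls were sensitive to which arrays entered the fit, while the direction was not. Without wild type day 0, wild type day 3, PKm1 knock-in day 0, PKm1 knock-in day 3 or PKm2 knock-in day 0, 0 members were called by limma. The calls over all genes fell there too, to between 0.0333% and 0.733%. Without wild type day 7, 2 members were called (1.1% of all genes), and without PKm2 knock-in day 7, 19 (8.77%). Without the whole wild type or PKm1 knock-in line 0 members were called by limma, as were 0 of all genes. Without the PKm2 knock-in line 10 members were called (1.77% of all genes). Without PKm2 knock-in day 3 there were 7 (0.913%), and without PKm1 knock-in day 7 there were 12 (5.91%). In each of these fits 29 or 30 members were higher at day 3. Tm7sf2 and Fads2 kept their calls in 13 of 13 alternatives that used all the samples of the comparison. Hmgcs1 lost its call in 4 of 13, Sqle, Lss, Sc5d, Acaca and Scd2 in 2 each and Dhcr7 in 1. Within slide 1, where PKm2 knock-in day 0 and day 3 lay together, 29 members were higher at day 3 with a median of 0.91.

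The promoters of these genes were read from the RefSeq table of the GRCm38.p6 build, which held 24 of the 31 members (29 promoters). The window was the 250 bases before each annotated transcription start. The sterol response element was searched as TCACNCCAC, the NF-Y box as CCAAT and the Sp1 box as GGGCGG, on both strands, with overlapping matches counted. SREBPs are weak activators on their own and are known to act with NF-Y and Sp1 bound nearby. The sterol response element in this exact spelling was found in 1 of the 24 members, Hmgcs1, beginning 137 bases before the start. It was found in 1.22% of all genes of the table. Other spellings of the element were not searched. The NF-Y box was found in 19 of 24 members (79.2%), against 37.5% of all genes of the table and 40.1% of the tested genes. The branches differed here: 14 of 15 sterol enzymes (93.3%) held an NF-Y box, as did all 3 regulators, and 2 of 6 fatty acid enzymes (33.3%), Fasn and Acss2. The Sp1 box was found in 20 of 24 members (83.3%), against 35.4% of all genes of the table and 59.6% of the tested genes. No test was made of these shares.

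Genes that rose at day 3 occurred with and without an NF-Y box. Of the 9 genes that rose, 7 were in the table and 5 of those held an NF-Y box, Acaca and Fads2 being the others. Ebp, with 2 boxes, did not move in a common direction. The windows of 6 members are printed to show this range, each 5′ to 3′ on the gene's own strand, with the sterol response element and the NF-Y boxes (CCAAT, or ATTGG where it lies on the other strand) in capitals. A match is a string of letters and not a measured binding site. A window without a match is likewise not shown to lack the element, which may be spelled otherwise. Whether the annotated starts, that of Acaca among them, are those used in these cells was not determined.
Hmgcs1, chr13:119690101-119690350 (plus strand), the gene with the sterol response element: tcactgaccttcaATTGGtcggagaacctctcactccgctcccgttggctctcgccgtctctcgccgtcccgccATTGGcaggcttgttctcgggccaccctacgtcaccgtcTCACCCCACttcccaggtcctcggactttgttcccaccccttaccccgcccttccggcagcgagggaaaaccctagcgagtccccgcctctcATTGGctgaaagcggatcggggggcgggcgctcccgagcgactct
Tm7sf2, chr19:6067851-6068100 (minus strand), the sterol enzyme with the smallest adjusted p: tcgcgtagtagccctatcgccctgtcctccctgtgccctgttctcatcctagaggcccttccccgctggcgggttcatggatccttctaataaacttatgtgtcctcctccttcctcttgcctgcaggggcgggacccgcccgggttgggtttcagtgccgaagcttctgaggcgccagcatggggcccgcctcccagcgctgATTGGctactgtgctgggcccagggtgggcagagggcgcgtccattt
Idi1, chr13:8885356-8885605 (plus strand): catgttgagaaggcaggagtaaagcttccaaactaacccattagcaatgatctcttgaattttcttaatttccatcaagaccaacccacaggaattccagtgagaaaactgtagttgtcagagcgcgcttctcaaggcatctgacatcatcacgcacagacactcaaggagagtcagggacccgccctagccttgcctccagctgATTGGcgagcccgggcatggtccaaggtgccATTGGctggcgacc
Ebp, chrX:8193513-8193762 (minus strand), the sterol enzyme without a common direction: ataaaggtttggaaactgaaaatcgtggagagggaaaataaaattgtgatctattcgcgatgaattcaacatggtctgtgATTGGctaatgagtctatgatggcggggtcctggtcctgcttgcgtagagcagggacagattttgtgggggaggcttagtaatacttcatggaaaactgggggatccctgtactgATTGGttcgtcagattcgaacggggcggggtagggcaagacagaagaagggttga
Fasn, chr11:120824548-120824797 (minus strand), a fatty acid enzyme with NF-Y boxes: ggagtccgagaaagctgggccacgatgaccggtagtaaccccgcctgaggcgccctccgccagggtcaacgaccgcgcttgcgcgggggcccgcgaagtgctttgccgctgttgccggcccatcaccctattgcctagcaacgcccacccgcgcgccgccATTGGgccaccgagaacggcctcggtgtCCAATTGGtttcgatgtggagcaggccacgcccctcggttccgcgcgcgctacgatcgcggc
Fads2, chr19:10101504-10101753 (minus strand), a fatty acid enzyme that rose and holds neither motif: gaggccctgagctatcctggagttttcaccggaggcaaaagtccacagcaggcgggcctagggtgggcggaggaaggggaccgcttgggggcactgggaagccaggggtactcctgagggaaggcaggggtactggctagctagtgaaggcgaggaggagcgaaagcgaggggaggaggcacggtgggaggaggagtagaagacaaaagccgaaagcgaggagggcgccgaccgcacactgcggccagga

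The second comparison followed the set on to day 7. Most members were lower again: 29 of 31 had a lower mean at day 7 than at day 3, 25 were lower in all 3 lines, and 19 had all 3 day 7 arrays below all 3 day 3 arrays, which was so for 21.5% of all genes. The median differences were -1.33 for the sterol branch, -1.25 for the fatty acid branch and -0.55 for the regulators, against -0.13 over all genes. By limma 0 members passed an adjusted p under 0.05, as did 0% of all genes, while 22 members had an unadjusted p under 0.05, beside 30.4% of all genes. Without the PKm2 knock-in day 7 array, 22 members were called (17.3% of all genes), and with the slide as a block, which sets that array aside because it is alone on its slide, 15 were (7.05%).

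Idi1 showed the largest difference. It read 13.42, 13.49 and 12.96 at day 3 and 10.40, 10.11 and 11.94 at day 7, a difference of -2.47 ± 0.44 SE with an adjusted p of 0.0745 in limma. Lss went from 10.96, 11.28 and 10.65 to 8.29, 8.84 and 9.91 (-1.95 ± 0.38 SE, limma adjusted p = 0.0763). In both genes the PKm2 knock-in line was the lowest of the 3 at day 3 and the highest at day 7, and neither gene's groups overlapped. Among fatty acid enzymes the largest differences were those of Acaca, which read 11.00, 11.21 and 12.10 at day 7 (-1.65 ± 0.31 SE, limma adjusted p = 0.0745), and Fasn, which read 7.83, 7.20 and 9.19 (-1.61 ± 0.40 SE, limma adjusted p = 0.0855). The PKm2 knock-in line was the highest of the 3 at day 7 in both.

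Over the 3 days 25 of 31 members (80.6%) were above day 0 at day 3 and below day 3 at day 7 in all 3 lines, against 22.4% of all genes. The 6 others were Acat2, Acss2, Ebp, Insig1, Srebf1 and Stard4. A second Stard4 probe did meet the pattern, with day 7 minus day 3 differences of -2.23, -0.08 and -0.45. By the F test over days, which asks for any change, 2 members passed an adjusted p under 0.05 in limma (background 1.18%): Tm7sf2 (adjusted p = 0.0401) and Fads2 (adjusted p = 0.0409). Tm7sf2 read 9.02, 9.67 and 10.25 at day 7, and Fads2 5.32, 5.40 and 5.31. In each line both lay nearer to their day 0 than to their day 3 value. This F test called 0 members without any 1 of the 3 wild type arrays or the day 0 and day 3 arrays of either knock-in line in limma. The calls over all genes fell there too, to between 0% and 0.173%. Without PKm2 knock-in day 7 the F test called 23 members (14.1% of all genes).

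**Figure D3:**
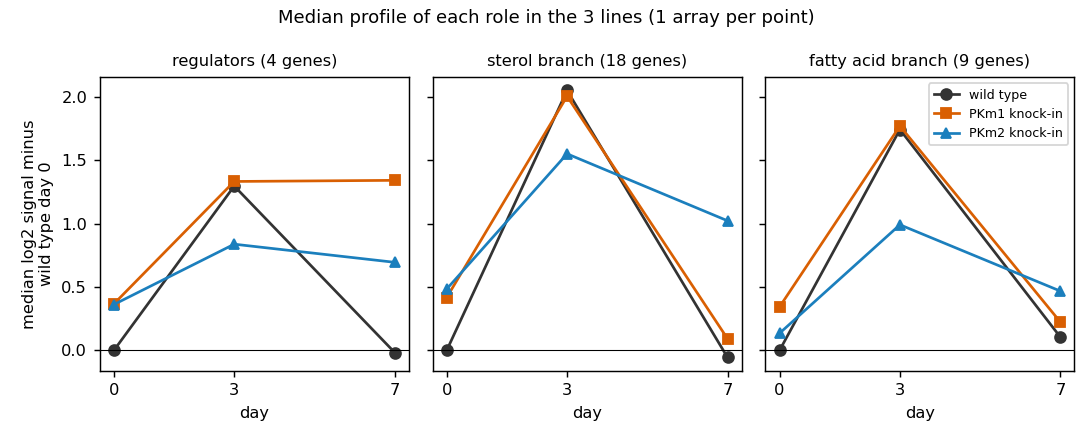
Each panel is a role, the horizontal axis is the day, and each point is the median over the role's genes of the log2 signal minus the wild type day 0 array, 1 array per point. All lines are highest at day 3 in the sterol and fatty acid panels, and at day 7 the PKm2 knock-in line is above the others there, after lying below them at day 3, while the PKm1 knock-in line stays high in the regulator panel.

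Day 7 against day 0 asked whether the set was back at its starting level. By limma 0 members passed (0.0999% of all genes did), and 2 members had an unadjusted p under 0.05 (14.3% of all genes), Srebf1 and Sc5d. The median difference was 0.07 for the sterol branch and -0.01 for the fatty acid branch. The sterol minus fatty acid difference, 0.08 in the fit, was negative within each line (-0.16, -0.09 and -0.14), so it had no settled sign. The lines did not return alike. In the wild type and PKm1 knock-in lines 11 of 31 members were above day 0, with medians of -0.04 and -0.29. In the PKm2 knock-in line 28 of 31 members were, with a median of 0.49. All genes had medians of -0.03, -0.17 and 0.04 in the 3 lines. Whether the lines differ in their change over days could not be tested with 1 array per line and day, and the PKm2 knock-in day 7 array is alone on its slide, so line and slide cannot be told apart there.

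Srebf1 did not come back down. It read 6.0, 6.33 and 6.05 at day 7, above every day 0 array, a difference of 0.89 ± 0.18 SE (limma adjusted p = 0.157), and was within 0.07 of its day 3 mean. Sc5d read 9.54, 10.65 and 10.11 at day 7, also above every day 0 array (1.01 ± 0.27 SE, limma adjusted p = 0.207). Scd2 (13.43, 13.16 and 13.09) and Fads2 were the other members with all day 7 arrays above all day 0 arrays, which was so for 7.05% of all genes. Scd1 and Ebp had all day 7 arrays below all day 0 arrays, which was so for 8.75% of all genes. Scd1 read 8.36, 8.8 and 8.60 at day 7 (-0.76 ± 0.36 SE, limma adjusted p = 0.399). Pmvk was lower by 0.45 in the fit (-0.45 ± 0.34 SE, limma adjusted p = 0.568), reading 11.71, 11.75 and 12.72, with the PKm2 knock-in line above its own day 0 value.

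The regulators Insig1 and Stard4 parted from most enzymes in the PKm1 knock-in line at day 7. Insig1 read 6.12 in the wild type line at day 7, its lowest value, 9.80 in the PKm1 knock-in line, its highest, and 8.01 in the PKm2 knock-in line. Against day 0 these are differences of -0.87, 2.30 and 0.54. Stard4 read 9.61, 11.18 and 10.01, and its day 7 minus day 0 difference was 1.60 in the PKm1 knock-in line against -0.02 and 0.14 in the others. A second Stard4 probe gave 0.18, 1.88 and 1.09, so on it the PKm2 knock-in line was higher than at day 0 too. On that probe the PKm1 knock-in line was not above its day 3 value at day 7 (-0.08). Srebf2 read 8.55, 9.69 and 9.15, and was 0.33 above day 0 in the PKm1 knock-in line, or 0.25 on a second probe. Srebf1 was above day 0 in every line, by 0.75, 0.84 and 1.08, and so was not particular to this line. On the same PKm1 knock-in array the sterol branch median was -0.39 and the fatty acid branch median -0.30 relative to day 0, both arrays lying on slide 2. On this day 7 array 5 of 18 sterol enzymes and 2 of 9 fatty acid enzymes were above day 0, Sc5d by 1.40. That array is the one with visceral endoderm markers at a mean log2 signal of 15.32, where Afp read 17.72, Rbp4 17.22 and Ttr 15.17, and their part in these values was not tested.

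**Figure D4:**
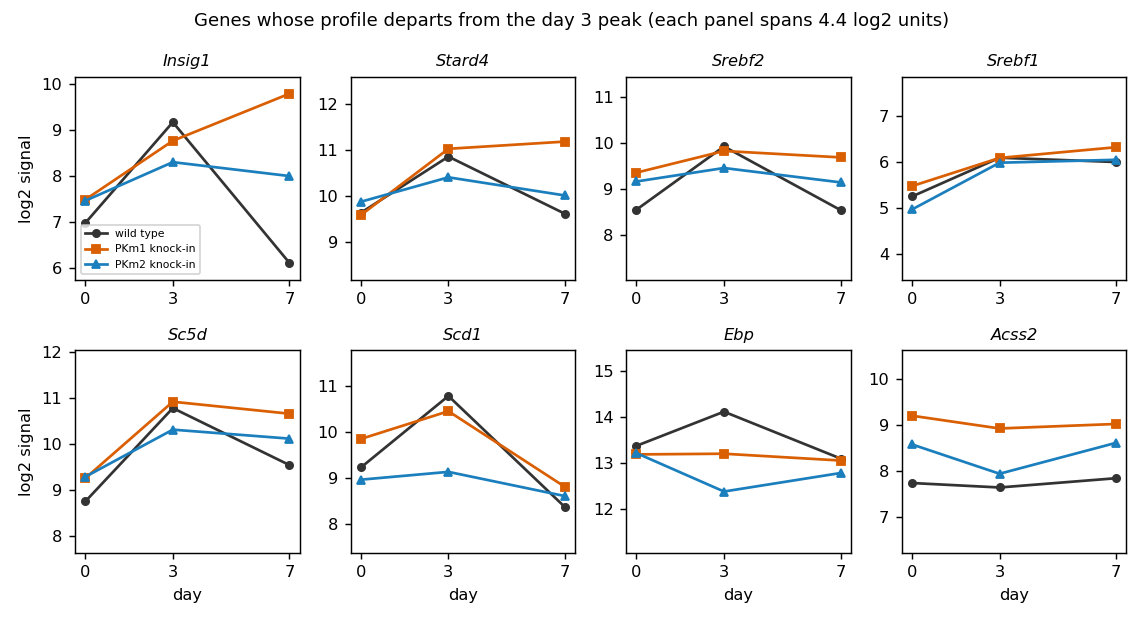
Log2 signal against day for 8 members chosen after their values were seen, with 1 line of points per cell line and every panel spanning the same range. Srebf2, Sc5d and Scd1 are highest at day 3 in all 3 lines. The departure from the day 3 peak named in the title applies to the other panels, in at least 1 line each. With the probe drawn for each gene, Insig1 and Stard4 are highest at day 7 in the PKm1 knock-in line. Srebf1 stays at its day 3 level in all 3 lines. On the probe drawn, Acss2 keeps the order PKm1 knock-in, PKm2 knock-in, wild type on every day.

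The third set of comparisons set the lines against each other over the 3 days. By limma 0 members passed an adjusted p under 0.05 in PKm1 knock-in against wild type (0.0133% of all genes did), 0 in PKm2 knock-in against wild type (0.0133%) and 0 in PKm2 knock-in against PKm1 knock-in (0%). At an unadjusted p under 0.05 there were 2, 4 and 2 members, beside 12.1%, 13.3% and 7.77% of all genes. The F test over lines also called 0 members in limma (0.0133% of all genes), with 3 members at an unadjusted p under 0.05 (12.8% of all genes). The members that came nearest are given here.

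Acss2 had the smallest p of the 31 members in the F test over lines (unadjusted p = 0.00125, adjusted p = 0.178 in limma). It read 7.74, 7.64 and 7.84 in the wild type line at days 0, 3 and 7, while PKm1 knock-in had 9.20, 8.92 and 9.02 and PKm2 knock-in 8.57, 7.94 and 8.61. No pair of lines overlapped. PKm1 knock-in was 1.31 ± 0.20 SE above wild type, 2.48-fold, with an adjusted p of 0.121 in limma. PKm2 knock-in was 0.64 ± 0.20 SE above wild type (limma adjusted p = 0.25) and below PKm1 knock-in (-0.67 ± 0.20 SE, limma adjusted p = 0.637). A second Acss2 probe gave 0.73 for PKm1 knock-in against wild type and 0.15 for PKm2 knock-in against wild type. The latter was 0.21, -0.22 and 0.45 on the 3 days, so the order of PKm2 knock-in and wild type rests on the probe used. Non-overlap in the higher direction was met by 4.9% and 7.92% of all genes in these comparisons with wild type, and non-overlap in the lower direction by 3.96% between the knock-in lines.

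Among sterol enzymes Msmo1 stood highest over wild type in both knock-in lines. It read 11.78, 13.52 and 11.77 in wild type, 13.04, 14.27 and 12.63 in PKm1 knock-in and 12.83, 13.85 and 13.77 in PKm2 knock-in. The differences were 0.96 ± 0.36 SE and 1.13 ± 0.36 SE, with adjusted p-values of 0.356 and 0.254 in limma. Tm7sf2 was 0.95 ± 0.23 SE higher in PKm2 knock-in than in wild type (limma adjusted p = 0.163), and higher on each day. Cyp51 read 8.49, 8.35 and 9.48 at day 7 and was 0.61 ± 0.27 SE higher in PKm2 knock-in than in PKm1 knock-in (limma adjusted p = 0.64), but not at day 3, where the difference was -0.11.

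Among fatty acid enzymes Acly was 0.99 ± 0.34 SE higher in PKm2 knock-in than in wild type (limma adjusted p = 0.289). At day 7 it read 13.10, 13.35 and 14.75, the PKm2 knock-in line keeping its day 3 level on this probe. A second Acly probe gave a mean of 0.93 over wild type, but -0.49 at day 3. On it the PKm2 knock-in line was 1.57 higher at day 7 than at day 3. Elovl6 read 12.36, 11.11 and 13.18 at day 7 and was 0.94 ± 0.35 SE higher in PKm2 knock-in than in PKm1 knock-in (limma adjusted p = 0.637). The day 7 arrays gave most of that, with a difference of 2.07 against 0.38 and 0.37 on the earlier days. Among regulators the largest line difference was that of Insig1, 1.26 ± 0.72 SE for PKm1 knock-in against wild type (limma adjusted p = 0.567), which reversed at day 3 (-0.40) and came from day 7 (3.68).

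Day by day, the PKm2 knock-in line crossed the wild type line. At day 0, 24 of 31 members were above wild type in it, with a median of 0.45 (0.05 over all genes), and both arrays lay on slide 1. At day 3, 24 of 31 were below wild type, with a median of -0.40 (-0.05 over all genes), but here wild type lay on slide 2 and PKm2 knock-in on slide 1. At day 7, 27 of 31 were above, with a median of 0.83 (0.13 over all genes), with PKm2 knock-in on slide 3 and wild type on slide 1. The crossing therefore coincides with a change of slide, and line and slide cannot be told apart in it. Over the 3 days together 22 members had a higher fitted level in PKm2 knock-in than in wild type, beside 53.7% of all genes. With the slide as a block 15 members did, where the median of all genes was 0. The pattern of above, below and above was met by 16 of 31 members (51.6%) and by 16.2% of all genes. The PKm1 knock-in line was above wild type in 26, 20 and 19 members on the 3 days, with medians of 0.37, 0.12 and 0.21. Of all genes 56.3%, 49.8% and 46.5% were above wild type in it, with medians of 0.08, 0 and -0.05. At day 3, on slide 1, PKm2 knock-in was below PKm1 knock-in in 28 of 31 members, with a median of -0.46. Of all genes 43.5% were above PKm1 knock-in there, with a median of -0.05. These are differences between single arrays and carry no p-value.

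**Figure D5:**
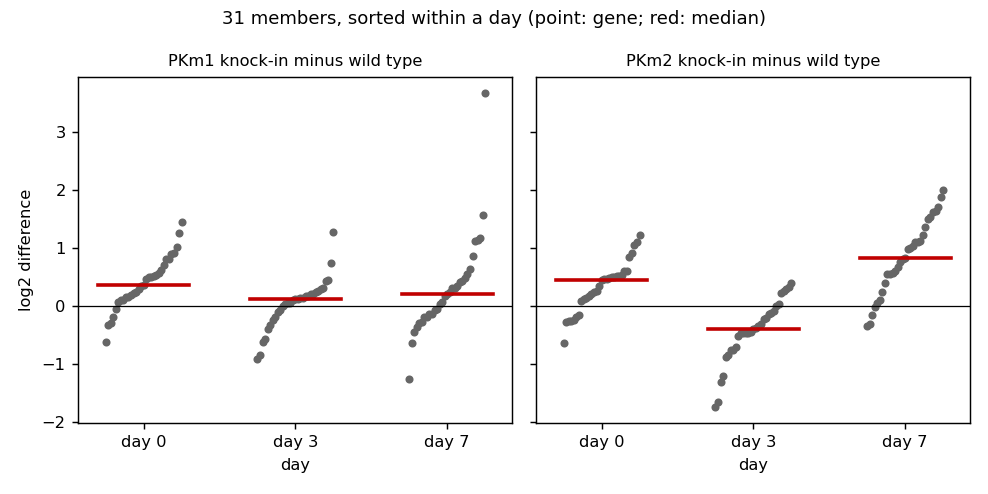
The vertical axis is the log2 difference from the wild type array of the same day, each grey point is 1 of the 31 members sorted within the day, and the red bar is their median. In the PKm2 knock-in panel the median is 0.45 at day 0, -0.40 at day 3 and 0.83 at day 7, and in the PKm1 knock-in panel the isolated point at 3.68 is Insig1 at day 7.

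The day 3 increase had an order among the lines. The median over members was 1.74 in wild type, 1.41 in PKm1 knock-in and 0.91 in PKm2 knock-in, where all genes had 0.15, 0.09 and 0.06. The slides differed between these comparisons. The wild type and PKm1 knock-in pairs each crossed slides 1 and 2, in opposite directions, so their order and the slide cannot be told apart. The PKm2 knock-in pair lay within slide 1, and the part of the slide in its place in the order was not tested. In 23 of 31 members (74.2%) the increase fell in that order, against 27.1% of all genes. The PKm2 knock-in increase was the smallest of the 3 in 26 members (83.9%, against 41.2% of all genes). Fdft1 is an example, with day 3 minus day 0 differences of 2.49, 1.41 and 0.91. Dhcr7 (2.32, 2.06 and 2.0) and Fasn (1.74, 1.43 and 1.33) kept the order with less spread. Since the day 3 increase includes the day 0 level, the higher day 0 values of the knock-in lines and their smaller increases share the same arrays, and the difference between lines in the increase was not testable.

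The wider pathway moved less. Of 30 other genes of SREBP processing, isoprenoid synthesis, sterol transport and fatty acid supply, 2 rose at day 3 by limma and 0 fell. Of all genes 1.86% rose and 2.2% fell. The median difference of the 30 was 0.20. The 2 were Aacs, which makes acetoacetyl-CoA from acetoacetate (1.77 ± 0.23 SE, adjusted p = 0.0241), and Acsl4, an acyl-CoA synthetase for long polyunsaturated fatty acids (1.54 ± 0.23 SE, adjusted p = 0.0297). Thrsp, a lipogenic cofactor, was 1.79 higher (limma adjusted p = 0.0583) and Slc25a1, the mitochondrial citrate carrier, 0.72 higher (limma adjusted p = 0.0994). The 4 processing genes Scap, Mbtps1, Mbtps2 and Insig2 ranged from -0.18 to 0.45, and the 5 isoprenoid genes from -0.48 to 0.18. The 8 genes of sterol transport and the LXR pathway, which exports surplus sterol, had no common direction, with a median of -0.03. Of these, 3 were lower at day 3 in each line, Mylip (-1.90 ± 0.93 SE), Abca1 (-1.27 ± 0.38 SE) and Nr1h3 (-1.06 ± 0.33 SE), with limma adjusted p-values of 0.249, 0.104 and 0.11. Abcg1, Npc1 and Soat1 were higher in each line (0.41, 0.28 and 0.5), also without passing the test. At day 7 against day 0 and at day 7 against day 3, 0 of the 30 were called by limma, beside 0.0999% and 0% of all genes. At an unadjusted p under 0.05 there were 5 and 7, beside 14.3% and 30.4% of all genes.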

How the data were processed

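Gene expression was measured in 9 total RNA samples, 1 per line and day, labelled with Cy3 and hybridised to one-colour Agilent arrays. Per the submitters' processing notes, the authors extracted the deposited intensity values with Agilent Feature Extraction 10.10, and the column used holds background-subtracted brightness on a linear scale. For the genome build, the entry is: not given in the sources used here. The linear intensity was taken here from each array's Feature Extraction output and not from the authors' value table. It was scaled to each array's 75th percentile, floored at 5 and set on a log2 scale. Control spots and flagged spots were left out. Probes were named by RefSeq accession through the supplied table. A probe had to read well above background on 3 or more of the 9 arrays, and each gene was represented by its probe of highest mean signal. All 9 arrays entered an additive model of line and day in limma 3.58.1 (R 4.3.3), with 4 residual degrees of freedom, moderated by empirical Bayes, and p-values were adjusted over all 15013 genes by the Benjamini-Hochberg method. Precision is limited by how few arrays there are. The interaction of line and day could not be fitted with a test. The fit was tested on simulated data.

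The members, gene lists, tests and alternatives were chosen with earlier results of these data known. Members given array by array were those called in any test, and in each role the 2 with the largest absolute difference in each day comparison and the 1 with the largest in each line comparison; the others are given by differences, counts and ranges. The alternatives changed the background (normexp, offset 50), the normalization (quantile, or scaling to probes detected on all arrays), the input (the authors' value table), the filter (none, or detection on all 9 arrays), the floor (1 or 20) and the probe rule (the mean of probes). Others used the slide as a block, no block, only the 6 arrays compared, trend and robust moderation, or a threshold of 0.1, or left out each line, day and array in turn.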

Additional observations from a re-analysis of the deposited data

How the results depend on the processing

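Counts of members called are given with the share of all genes called in parentheses, which moved with them. At day 3 against day 0 the 9 members (4.06%) became 16 with normexp background correction (6.09%), 16 with a filter on all 9 arrays (5.29%), 16 with trend and robust moderation (6.61%), 17 with only the 6 arrays compared (9.43%), 19 at an adjusted p under 0.1 (11.7%) and 2 with no filter (0.624%). Leaving out a line or an array gave 0 to 19. At day 7 against day 3 the 0 members (0%) became 6 with normexp (1.27%), 6 with trend and robust moderation (1.71%), 1 with a filter on all 9 arrays (0.634%), 15 with the slide as a block (7.05%) and 18 at an adjusted p under 0.1 (12.3%), and 0 to 22 on leaving out a line or array. In the F test over days the 2 members (1.18%) became 12 with normexp (3.82%), 12 with trend and robust moderation (4.62%), 10 with a filter on all 9 arrays (3.21%), 10 with the slide as a block (4.85%), 17 at an adjusted p under 0.1 (10.3%) and 0 with no filter (0.0145%), and 0 to 23 on leaving out a line or array. Counts for day 7 against day 0, for the 3 comparisons of lines and for the F test over lines were 0 under every alternative run. Members higher at day 3 than at day 0 numbered 29 or 30 in all alternatives, and members lower at day 7 than at day 3 27 to 30.

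The sterol minus fatty acid median moved further than its spread over lines or days in these cases. At day 3 against day 0 (0.24) it was 0.69 with normexp and 0.35 with the mean of probes, and 0.12 to 0.33 on leaving out a line, day or array. At day 7 against day 0 (0.08) it was 0.18 with the mean of probes and -0.24 with the slide as a block, and -0.24 to 0.28 likewise. At day 7 against day 3 (-0.09) it was -0.29 with normexp, and -0.25 to 0.03 likewise. For PKm1 knock-in against wild type (-0.04) it was -0.13 with normexp, -0.19 with quantile normalization, 0.19 with the mean of probes and 0.02 with the slide as a block, and -0.10 to 0.14 likewise. On leaving out a line, day or array it ran from 0.01 to 0.46 for PKm2 knock-in against wild type and from -0.04 to 0.40 for PKm2 knock-in against PKm1 knock-in. The cause was not tested. Scaling to probes detected on all arrays moved the median of all genes from 0.09 to -0.08 at day 3 against day 0 and from -0.13 to 0.07 at day 7 against day 3. Under it and under the other scalings the members' single-array medians kept their sign in each line and on each day. The line and day terms of the model compare days within lines and lines within days, and without them 12 members were called at day 3 against day 0 (3.14%). No paired analysis was possible because the labels number no replicates, beyond that pairing by line and day.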
